A study of Mus musculus with 2 samples.

Results

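The genes described here are 4 genes of the HoxA cluster, Hoxa5, Hoxa7, Hoxa9 and Hoxa10, and 5 genes of the TALE class of homeobox genes, Meis1, Pbx2, Pbx3, Pknox1 and Tgif1. They were taken by symbol from a list of names, and all 9 were found among the 43346 Ensembl genes of the deposited tables. Total RNA was sequenced in common myeloid progenitors, bone marrow cells that can become granulocytes, monocytes, megakaryocytes or red cells. These were primary cells of C57BL/6J male adults aged 5 to 6 weeks, with no genetic change or treatment named, and they form 1 group of 2 libraries. Both libraries were made with ScriptSeq from 100 ng of RNA after removal of ribosomal RNA, and the labels give a size range, with no unit, of 200 to 1000 (replicate 1) or 187 to 1606 (replicate 2). They are numbered as biological replicates, yet 1 donor is named for both, and their spread may therefore be technical. With 1 group no condition was compared and no p-value is given.

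HOX proteins are homeodomain transcription factors whose genes lie in clusters, and members of the HoxA cluster are active in blood stem and progenitor cells and fall silent as myeloid cells mature. TALE proteins carry a homeodomain with a short insertion; those of the Meis, Pbx and Pknox families bind DNA together with HOX proteins, while Tgif proteins mostly repress transcription. In mouse bone marrow, forced expression of Hoxa9 together with Meis1 causes acute myeloid leukaemia.

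Replicate 1 held 28158803 expected counts over the Ensembl genes and replicate 2 held 84041054, which is 2.98 times as deep. Levels are in TPM, the relative abundance of transcripts corrected for their length, and nuclear protein-coding genes held 20.1% of all TPM in replicate 1 and 21.5% in replicate 2. All 8 of the progenitor markers checked, such as Kit, Cd34 and Mpo, reached 1 TPM in both libraries, Mpo at 314.33 and 399.28 TPM. For scale, 42.5% of nuclear protein-coding genes reached 1 TPM in both libraries and 38.3% had 0 counts in both. Among markers of other cells, 4 of 5 B cell markers, 3 of 5 T and NK cell markers and 3 of 6 stromal and endothelial markers had 0 counts in both libraries; their summed levels were 0 and 0.07 TPM for B cells and 0.15 and 0.48 TPM for T and NK cells in replicates 1 and 2. The stromal and endothelial list summed to 8.94 and 13.25 TPM, of which Pecam1, which blood progenitors also carry, gave 8.76 and 12.62 TPM. Of 4 lymphoid progenitor markers, Dntt alone reached 1 TPM in both libraries, at 24.85 and 22.56 TPM. Il7r had 0.96 and 0.13, Rag2 0.77 and 0.25, and Rag1 0 and 0.03 TPM. These 3 were past 2-fold between the libraries, as were 20.9% of genes with a mean count of at least 10. Of the markers of mature myeloid and red cells, 2 of 5 for neutrophils, 2 of 4 for monocytes and 2 of 4 for the erythroid lineage reached 1 TPM in both libraries, and these lists summed to between 11.27 and 23.53 TPM per library. The part of these cells in the values below was not tested, and in bulk RNA fewer cells with a transcript cannot be told apart from less of it per cell.

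The 4 HoxA genes lie on the minus strand of chromosome 6 (mm10, the assembly GRCm38), in the order Hoxa5 at chr6:52201754-52204587, Hoxa7 at chr6:52214491-52221854, Hoxa9 at chr6:52223100-52231089 and Hoxa10 at chr6:52231197-52240854. Their Ensembl identifiers are ENSMUSG00000038253 for Hoxa5, ENSMUSG00000038236 for Hoxa7, ENSMUSG00000038227 for Hoxa9 and ENSMUSG00000000938 for Hoxa10. Meis1 (ENSMUSG00000020160) lies at chr11:18879817-19018985 on the minus strand, and Pbx3 (ENSMUSG00000038718) at chr2:34171457-34373142 on the minus strand. Chromosome 17 holds Pbx2 (ENSMUSG00000034673) at chr17:34591266-34597400 and Pknox1 (ENSMUSG00000006705) at chr17:31564734-31607693, both on the plus strand, and Tgif1 (ENSMUSG00000047407) at chr17:70844205-70853546 on the minus strand.

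A sequence feature shared by some of these genes sits inside the HoxA cluster itself. Mir196b, the gene of the microRNA miR-196b, lies at chr6:52230081-52230165 within the span of Hoxa9, and miR-196 is known to act on HOX transcripts. The mature miRNA is shown from RefSeq (GRCm38.p6) with its seed, bases 2 to 8, in capitals, followed by each 7-base match to that seed in the annotated 3′ UTRs of the 9 genes (GENCODE M21, GRCm38); capitals mark the match.
mmu-miR-196b-5p: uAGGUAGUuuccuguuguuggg
Hoxa5 site 1: gatatttttattcaaACTACCTa
Hoxa7 site 1: aggcacagccaaaatACTACCTa
Hoxa7 site 2: gagaggcactcccaaACTACCTa
Hoxa7 site 3: caaaccatgatcaatACTACCTa
Hoxa7 site 4: tactactagccctaaACTACCTa
Hoxa9 site 1: gcaaaaggaaagaaaACTACCTt
Pbx3 site 1: ttagagcgctcacttACTACCTc

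Of the 9 genes, 4 held such a match, and Hoxa7 held 4 of them. Across all 21020 genes with an annotated 3′ UTR, taking each gene's longest, 6.10% held at least 1 match. Among genes whose 3′ UTR was within 20% of the same length, the share with a match was 3.15% for Hoxa5, 4.92% for Hoxa7, 4.50% for Hoxa9 and 6.76% for Pbx3. The 5 matches of Hoxa5 and Hoxa7 are followed by an A, and those of Hoxa9 and Pbx3 are not. The matches lie at chr6:52202119-52202125 in Hoxa5, at chr6:52215401-52215407, chr6:52215364-52215370, chr6:52215232-52215238 and chr6:52215211-52215217 in Hoxa7, at chr6:52223901-52223907 in Hoxa9 and at chr2:34172004-34172010 in Pbx3. Mir196b itself was listed at 0 counts in both libraries with an effective length of 0, so the miRNA's level was not measured here, and a match is a run of letters, not a measured site.

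Of the 9 genes, 7 reached 1 TPM in both libraries, against 42.5% of the 21461 nuclear protein-coding genes. The 9 genes and all other lists were chosen with earlier results of these data known, so such shares give scale only. Meis1 and Hoxa9 led, Tgif1 stood beside Hoxa9, and Hoxa5 and Hoxa10 lay under 1 TPM in both libraries. The median of the 9 genes was 4.14 TPM in replicate 1 and 5.35 TPM in replicate 2. By mean TPM the order was Meis1, Hoxa9, Tgif1, Pbx2, Pknox1, Hoxa7, Pbx3, Hoxa5 and Hoxa10. Of the 8 pairs of neighbours in that order, 4 were apart in every library value, namely Meis1 above Hoxa9, Tgif1 above Pbx2, Pbx3 above Hoxa5 and Hoxa5 above Hoxa10. Hoxa9 and Tgif1 changed places between the libraries, and so did Hoxa7 and Pbx3. The values of Pbx2 and Pknox1, and of Pknox1 and Hoxa7, kept their order in each library but overlapped across libraries. The place of Hoxa9 depends on the scale. By counts scaled to library size (CPM), Hoxa9 in replicate 2, at 36.1, lay below Pbx2 (42.3), Pknox1 (42.1) and Tgif1 (40.3). In replicate 1, at 47.0, it lay above them (35.0, 37.9 and 31.4).

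**Figure D1:**
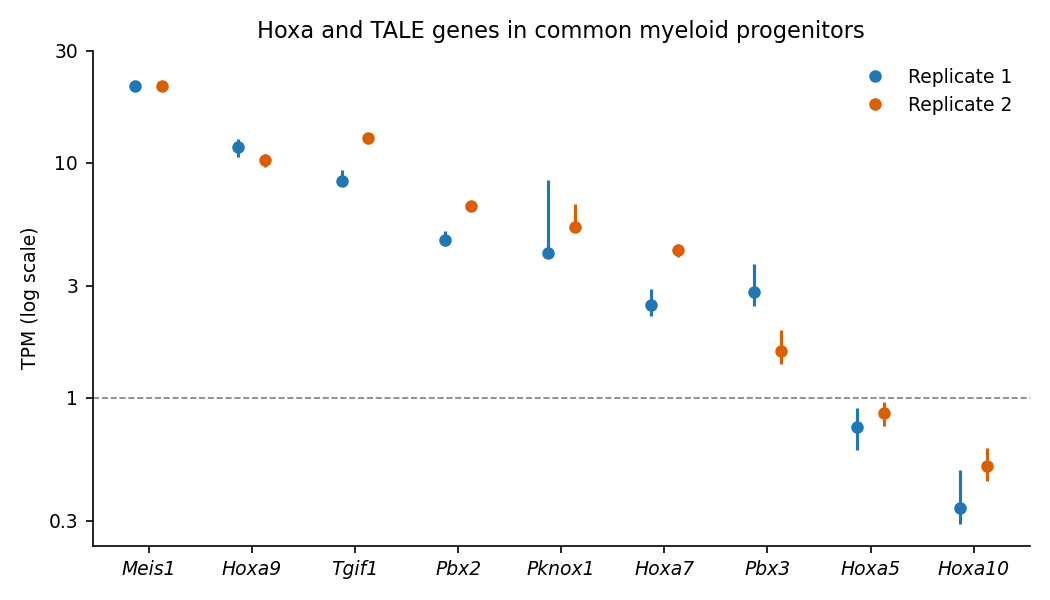
TPM of each gene on a log axis in replicate 1 (blue) and replicate 2 (orange), with lines from the lower to the upper interval bound in the deposited tables; the dashed line marks 1 TPM. Meis1 stands at 21.32 and 21.29 TPM, and Hoxa5 and Hoxa10 lie under the dashed line in both libraries.

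Among the Hoxa genes, Hoxa9 was the most abundant. Hoxa9, whose loss in mice reduces myeloid and lymphoid progenitors, stood at 11.71 TPM in replicate 1 and 10.28 TPM in replicate 2, from 1323 and 3035 expected counts. Its mean of 11.0 ± 1.01 TPM (SD, n = 2) ranked 3287 among the 21461 nuclear protein-coding genes. Hoxa9 exceeded Hoxa7 4.70-fold in replicate 1 and 2.42-fold in replicate 2 on the TPM scale, and exceeded Hoxa10 34.4-fold and 20.2-fold.

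Hoxa7, often expressed with Hoxa9 in leukaemias with a rearranged Kmt2a gene, was next. It stood at 2.49 TPM in replicate 1 and 4.24 TPM in replicate 2, from 303 and 1256 expected counts, with a mean of 3.37 ± 1.24 TPM (SD, n = 2). The interval bounds in the deposited tables were 2.22 to 2.89 TPM in replicate 1 and 3.96 to 4.53 TPM in replicate 2. They did not overlap, but their level was not stated. Bounds were apart between the libraries for 4 of the 9 genes, and the share of all genes with such bounds was not counted.

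Hoxa5, known for patterning the lung and the upper trunk in mice, stood at 0.75 and 0.86 TPM in replicates 1 and 2, from 95 and 281 counts. Hoxa10, known in mice for the fertility of both sexes and for expanding myeloid progenitors when overexpressed, stood at 0.34 and 0.51 TPM, from 61 and 151 counts. The libraries agreed on placing Hoxa5 above Hoxa10, with means of 0.805 ± 0.0778 and 0.425 ± 0.120 TPM (SD, n = 2). For Hoxa10 the 2 scales moved in opposite ways: the counts scaled to library size (CPM) were 2.17 in replicate 1 and 1.80 in replicate 2, while TPM was higher in replicate 2. Its effective length was 2350.36 bases in replicate 1 and 1508.18 bases in replicate 2; a different transcript model held its reads in each library.

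Among all HOX genes, only Hoxa7 and Hoxa9 reached 1 TPM in both libraries. Of the 39 HOX genes of the 4 clusters, 10 had any count and 29 had 0 counts in both libraries, where 38.3% of nuclear protein-coding genes had 0 counts in both. A count of 0 allows up to 0.107 CPM in replicate 1 and 0.0357 in replicate 2, a limit of 3 counts that covers counting error only. The HoxA cluster held 94.97% of the summed HOX TPM in replicate 1 and 97.8% in replicate 2, and Hoxa9 alone held 66.2% and 62.1%. HoxB held the rest, and all 9 HoxC and all 9 HoxD genes had 0 counts.

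The other HOX genes with counts were Hoxa3, Hoxa4, Hoxa6, Hoxb2, Hoxb3 and Hoxb4. Hoxa3 had 0.59 and 0.23 TPM in replicates 1 and 2, and Hoxb4, known for expanding blood stem cells when overexpressed, had 0.58 and 0.25 TPM. Their means of 0.41 and 0.415 TPM were close to that of Hoxa10, 0.425 TPM. Hoxa4 had 33 and 16 counts and Hoxb3 had 26 and 72 counts. Hoxa6 had 31 counts and Hoxb2 had 16 counts in replicate 1, and both had 0 counts in the deeper replicate 2. Along the HoxA cluster the genes with counts thus ran without a gap from Hoxa3 to Hoxa10 in replicate 1 only. In the deeper replicate 2, Hoxa6 left a gap in this run. Hoxa2 before the run and Hoxa11 and Hoxa13 after it had 0 counts in both libraries.

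**Figure D2:**
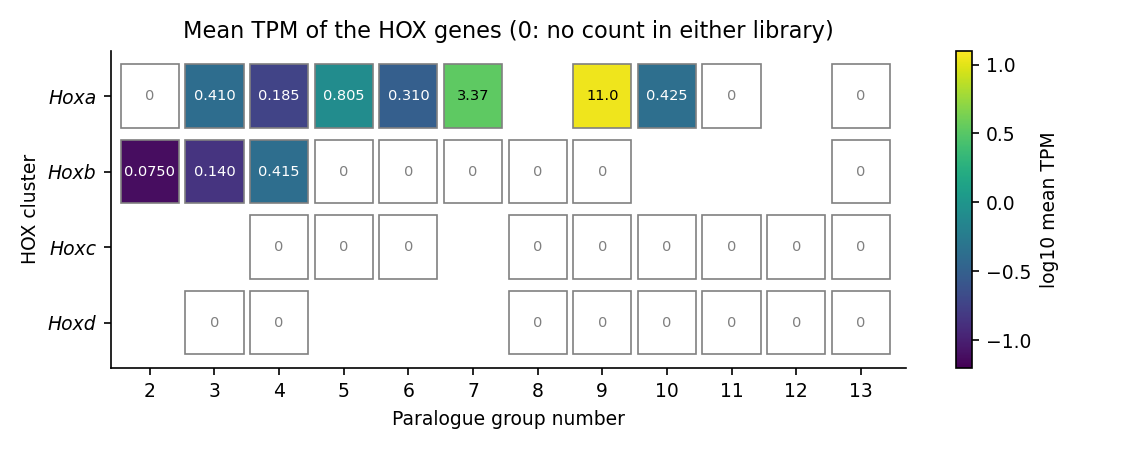
Mean TPM of HOX genes by cluster (rows) and paralogue group number from 2 to 13 (columns), coloured by log10 mean TPM; white boxes have 0 counts in both libraries and empty places hold no gene. Hoxa9, at 11.0 TPM, stands out among the coloured boxes from Hoxa3 to Hoxa10, of which Hoxa6 had counts in replicate 1 only. Hoxc and Hoxd are at 0 throughout.

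Other entries of the HoxA locus had few counts. Within 50 kb on either side of the cluster, 27 entries other than HOX genes were listed, and 2 of them had any count. Of the 27, many are short RNAs, among them Mir196b with its effective length of 0, so a count of 0 there does not show that no transcript was made. Those with counts were the long noncoding RNAs Hoxaas3, with 2 and 109 counts in replicates 1 and 2, and Hoxaas2, with 4 and 0 counts. Hotairm1, Hottip and Hoxa11os, noncoding RNAs of the cluster, and Halr1 and the homeobox gene Evx1 nearby, had 0 counts in both libraries. Hoxaas3 runs antisense over 586 exonic bases of Hoxa7, and since the strand setting of the counting was not given, reads there may belong to either gene. Skap2, a protein-coding gene of an adaptor protein that neighbours the cluster, stood at 29.6 and 30.12 TPM, which was 2.53 and 2.93 times the TPM of Hoxa9.

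Among the TALE genes, Meis1 was the most abundant. Meis1, needed in mice for definitive blood formation and for megakaryocytes, stood at 21.32 and 21.29 TPM in replicates 1 and 2, from 5043.33 and 12562.35 expected counts. Its mean of 21.3 ± 0.0212 TPM (SD, n = 2) ranked 1623 among nuclear protein-coding genes, and it exceeded Hoxa9 1.82-fold and 2.07-fold on the TPM scale. On the CPM scale its values were 179.1 and 149.5, so the close match of the 2 TPM values does not hold on that scale. Meis2 and Meis3 had 0 counts in both libraries. The predicted gene Gm37818, on the same strand, shares 1029 exonic bases with Meis1 and had 250.67 and 1116.65 counts, and the antisense gene Gm16140 shares 896 bases and had 48 and 217 counts, so a part of the Meis1 reads could be assigned to either.

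The Pbx proteins are the common partners of HOX and Meis proteins on DNA. Pbx2, whose loss leaves mice without an overt defect, stood at 4.68 and 6.52 TPM in replicates 1 and 2, from 985 and 3551 counts. Pbx3, needed in mice for breathing at birth and a partner of Hoxa9 in leukaemia models, stood at 2.83 and 1.58 TPM, from 265 and 546 counts. Pbx2 was thus the higher in both libraries, 1.65-fold and 4.13-fold. The means were 5.60 ± 1.30 TPM for Pbx2 and 2.21 ± 0.884 TPM for Pbx3 (SD, n = 2), and the interval bounds of each gene did not overlap between the libraries.

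Their relative Pbx4 stood at 2.97 and 3.41 TPM. Pbx2 was above Pbx4 in both libraries. Pbx3 was below Pbx4 by TPM in both, but in replicate 1 their interval bounds overlapped, 2.47 to 3.69 TPM for Pbx3 and 2.53 to 4.17 TPM for Pbx4. By expected counts, which are not corrected for length, Pbx3 had more, 265 and 546 against 128 and 392. Pbx2 shares 227 exonic bases with Gpsm3 on the same strand, a gene with 191 and 991 counts.

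Pknox1, also called Prep1, competes with Meis proteins for Pbx and is needed in mice for normal blood formation. It stood at 4.14 and 5.35 TPM in replicates 1 and 2, from 1067 and 3540 counts, and averaged 4.75 ± 0.856 TPM (SD, n = 2). In replicate 1 the interval bounds ran from 3.93 to 8.41 TPM, the widest relative to its level of the 9 genes in that library, and the posterior mean was 5.57 TPM, against 5.76 TPM in replicate 2. Of the posterior abundance, 25.1% in replicate 1 and 7.32% in replicate 2 was put on a 161-base model that is not in GENCODE M21 and had 0 expected counts in both libraries. Pknox2 had 0 counts in both libraries, and Meis1 exceeded Pknox1 5.15-fold and 3.98-fold on the TPM scale.

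Tgif1, a repressor that joins Smad proteins of the TGF-beta pathway, stood at 8.34 TPM in replicate 1 and 12.75 TPM in replicate 2, from 885 and 3384 counts. Its mean was 10.5 ± 3.12 TPM (SD, n = 2), the largest SD of the 9 genes. The interval bounds were 7.94 to 9.28 TPM and 12.2 to 13.4 TPM, so they did not overlap. Its relative Tgif2 stood at 3.26 and 4.13 TPM, and Tgif1 held 71.9% and 75.5% of the summed TPM of the pair.

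Among TALE genes of other families, Mkx and the Iroquois genes Irx1 to Irx6 had 0 counts in both libraries. The 4 Hoxa genes summed to 15.29 and 15.89 TPM in replicates 1 and 2, and the 5 TALE genes among the 9 summed to 41.31 and 47.49 TPM. The Hoxa genes thus made up 27.0% and 25.1% of the summed level, a mean of 26.0 ± 1.37% (SD, n = 2).

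**Figure D3:**
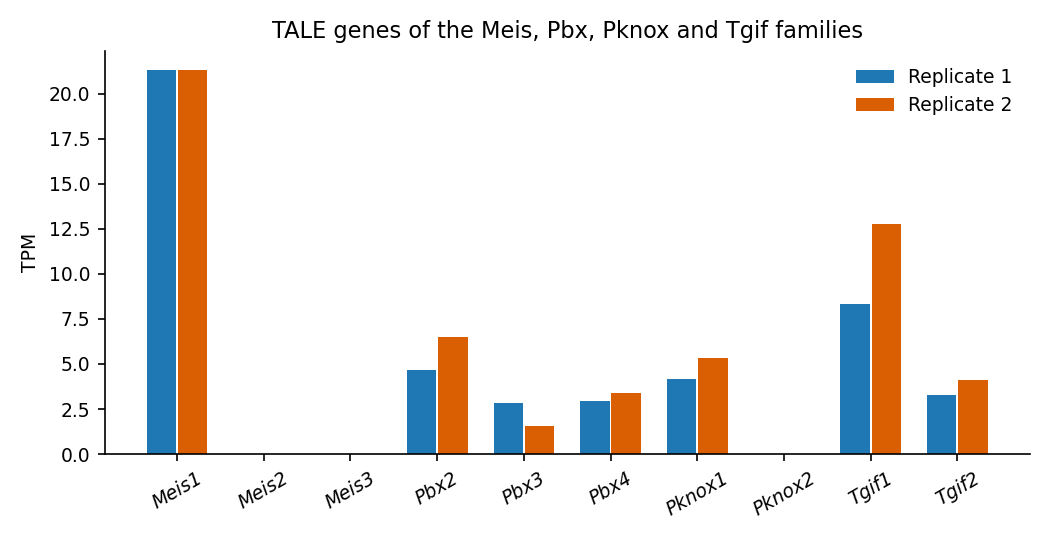
TPM of 10 genes of the Meis, Pbx, Pknox and Tgif families in replicate 1 (blue bars) and replicate 2 (orange bars), on an axis that starts at 0. Meis1 is the tallest at 21.32 and 21.29 TPM, and Meis2, Meis3 and Pknox2 have no bar because they had 0 counts.

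None of the 9 genes differed 2-fold between replicate 2 and replicate 1 after TMM scaling of the expected counts, where 20.9% of the 15115 genes with a mean count of at least 10 did so and 6.78% of the 11703 genes with a mean count of at least 100, a depth that all 9 reach. The median absolute log2 ratio was 0.28 over the 9 genes, against 0.31 over all genes tested and 0.23 over those with a mean count of at least 100. The log2 ratio of replicate 2 over replicate 1 was above 0 for 4 genes and below 0 for 5. The largest were 0.48 for Hoxa7 and -0.53 for Pbx3, and the smallest was -0.01 for Hoxa5. It was -0.38 for Hoxa9, -0.27 for Hoxa10, -0.26 for Meis1, 0.28 for Pbx2, 0.16 for Pknox1 and 0.36 for Tgif1. The exact 95% interval from counting error excluded 0 for 7 of the 9, and did so for 73.9% of the 15115 genes and 73.4% of the 11703. The exceptions, Hoxa5 and Hoxa10, had the fewest counts of the 9. These intervals leave out PCR copies and the differences between preparations.

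**Figure D4:**
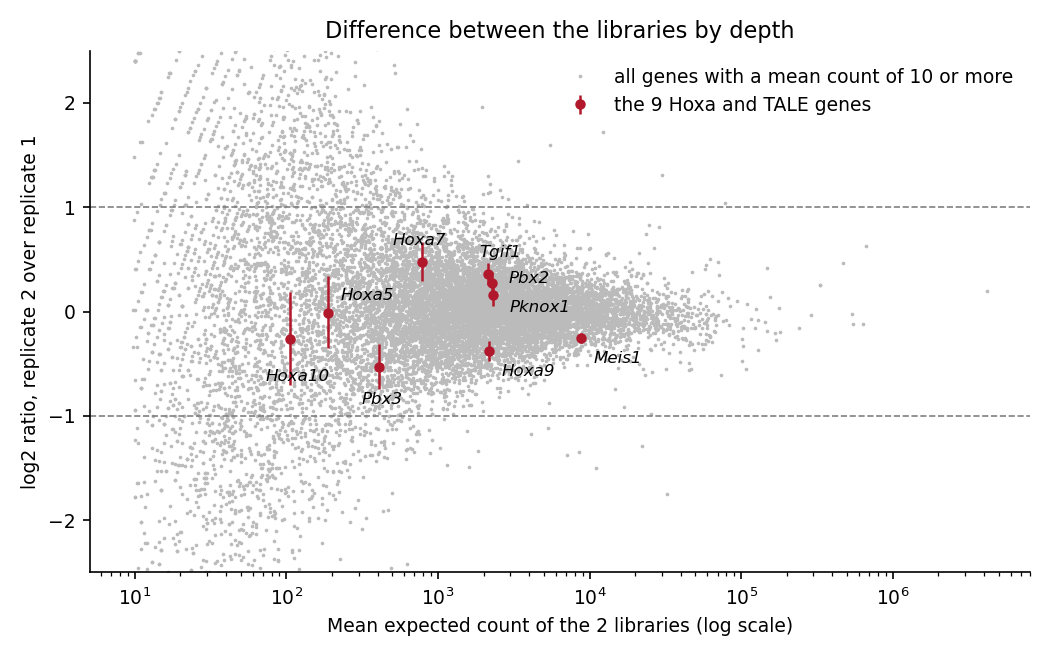
The log2 ratio of replicate 2 over replicate 1 against the mean expected count on a log axis for all genes with a mean count of 10 or more (grey) and for the 9 genes (red, with exact 95% counting intervals); dashed lines mark 2-fold, and 1615 genes beyond 2.5 on either side are not drawn. All 9 genes lie between the dashed lines, from -0.53 for Pbx3 to 0.48 for Hoxa7.

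Below the level of the gene, the tables split reads among transcript models, of which the 9 genes had 58. A split rests on the few bases or junctions that tell models apart, so it is less firm than the gene's level. For the 7 genes with at least 100 counts in each library, 5 had the same leading model by TPM in both libraries, and Pbx3 and Tgif1 did not. By expected counts 6 did, and Tgif1 did not. The share of all genes that kept their leading model was not counted. Models shorter than their relatives weigh more in TPM than in counts.

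Hoxa9 is an example. Hoxa9-201, the 3226-base protein-coding model, took 77.7% and 81.4% of the expected counts of the gene in replicates 1 and 2, yet 38.3% and 40.8% of its TPM. Protein-coding models of Hoxa9 together held 6.69 and 4.20 TPM, below those of Tgif1 at 7.38 and 11.27 TPM. Hoxa9-203, a 678-base model with no coding sequence, took 13.2% and 18.6% of the counts and 42.1% and 59.2% of the TPM. It begins 3719 bases upstream of Hoxa9-201, 108 bases from the 3′ end of Hoxa10, and skips from there into the body of Hoxa9. Hoxa9-202, in which 173 bases of the first exon are spliced out, had 107.4 counts in replicate 1 and 0 in replicate 2. The 3 models are shown where they enter the same 90-base segment (GENCODE M21, GRCm38, minus strand); capitals mark the 68 bases before it, which belong to the upstream exon in Hoxa9-203, to the end of the spliced exon in Hoxa9-202 and to the unspliced first exon in Hoxa9-201.
Hoxa9-203: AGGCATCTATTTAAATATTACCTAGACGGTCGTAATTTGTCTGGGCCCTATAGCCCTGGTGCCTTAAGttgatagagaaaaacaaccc
Hoxa9-202: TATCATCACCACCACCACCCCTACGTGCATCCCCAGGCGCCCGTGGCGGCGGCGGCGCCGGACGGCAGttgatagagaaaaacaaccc
Hoxa9-201: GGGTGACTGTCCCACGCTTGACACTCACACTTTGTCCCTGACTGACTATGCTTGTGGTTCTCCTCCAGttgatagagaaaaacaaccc

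The capitals lie at chr6:52231022-52231089 for Hoxa9-203, chr6:52225791-52225858 for Hoxa9-202 and chr6:52225618-52225685 for Hoxa9-201. Those 68 bases are all that Hoxa9-203 holds beyond Hoxa9-201, with which it shares 610 bases, and Hoxa9-202 holds no base that Hoxa9-201 lacks. Of the 5 Hoxa9 models, Hoxa9-201 alone spans the match to the miR-196b seed, and it held 1027.4 and 2470.45 counts.

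In Hoxa7 the leading model was one that the annotation classes as a target of nonsense-mediated decay, the pathway that degrades messages with an early stop. Hoxa7-205 held 290 and 1049.63 counts in replicates 1 and 2, which was 95.7% and 83.6% of the counts of the gene. Of its TPM, Hoxa7-205 held 83.9% and 69.6%. The protein-coding model Hoxa7-201 held 0 and 127.51 counts, and Hoxa7-203 held 13 and 78.86 counts. In GENCODE M21, where Hoxa7-201 is longer than in the deposited table, Hoxa7-205 and Hoxa7-201 share 1801 bases, the 4 matches to the miR-196b seed included, and differ by 230 bases found in Hoxa7-205 only and 208 in Hoxa7-201 only. Models with the 4 matches held 95.7% and 93.7% of the counts of Hoxa7.

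Hoxa10 had a different model in each library. All 61 counts of replicate 1 went to Hoxa10-202, a protein-coding model, and all 151 counts of replicate 2 went to Hoxa10-203, which has no coding sequence. The models share 1582 bases, and 128 bases are found in Hoxa10-203 only. Hoxa10-201 and Hoxa10-204, which start further upstream, had 0 counts in both libraries. Hoxa5 had a single model.

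**Figure D5:**
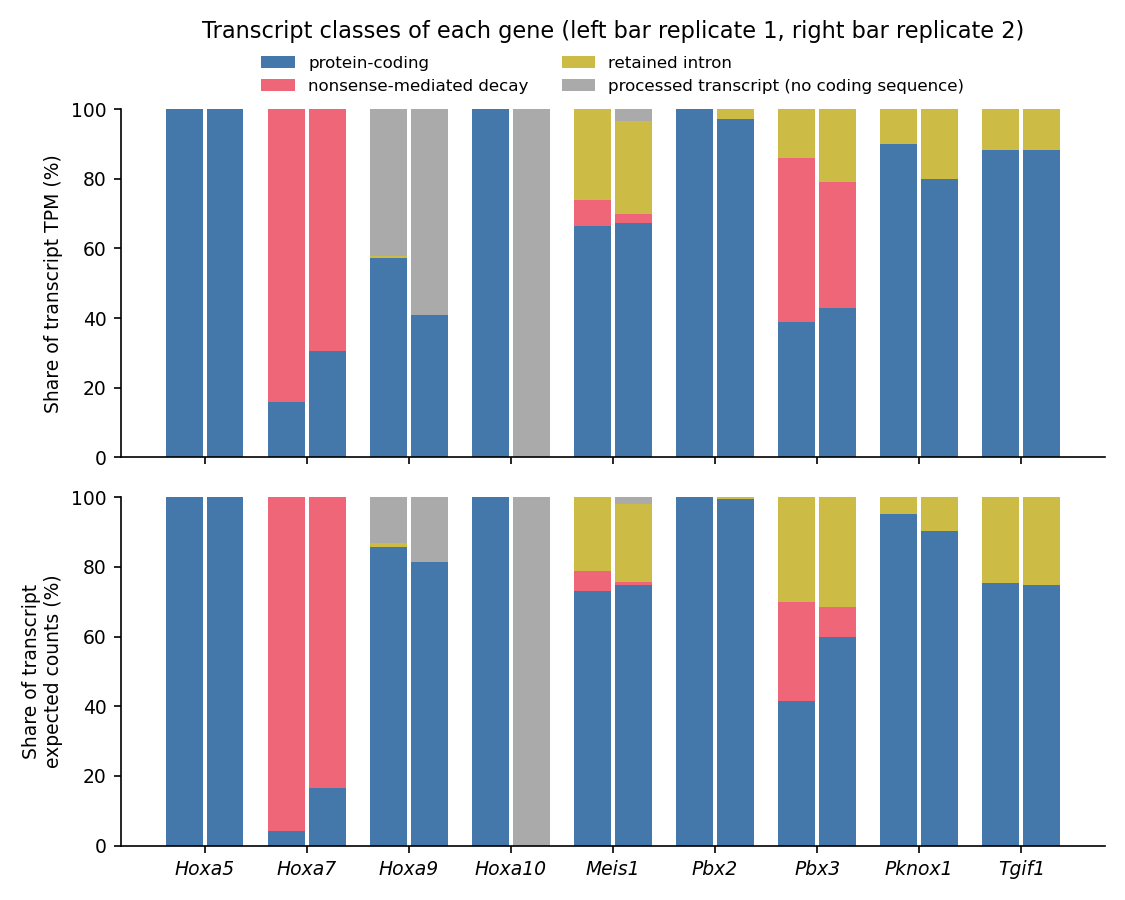
Share of transcript TPM (top) and of transcript expected counts (bottom), in percent, by annotated class for each gene, replicate 1 in the left bar and replicate 2 in the right. Hoxa7 is mostly nonsense-mediated decay, at 83.9% and 69.6% of TPM, Hoxa10 changes class between the libraries, and the class without coding sequence in Hoxa9 is larger by TPM than by counts.

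Meis1 is made with alternative C-terminal ends, and a 95-base exon at its 3′ end, included or skipped, sets some of them. Models that include the exon held 58.8% of Meis1 TPM in replicate 1 and 43.9% in replicate 2, and models that skip it held 7.55% and 23.5%. Models with neither of these junctions, among them the protein-coding Meis1-206 and Meis1-208, held 33.6% and 32.6%. In replicate 1 the skipping share lay wholly in models classed under nonsense-mediated decay. Of the skipping models, Meis1-209, which is protein-coding, had 0 counts in replicate 1 and 2738.85 in replicate 2, or 0 and 4.47 TPM. Meis1-201, the leading model with the exon, had 2849.75 and 5016.99 counts, or 12.54 and 8.60 TPM. Inclusion was the larger in both libraries, and the ratio of the forms differed between them. The coding bases of each form are shown from the same 20 bases of the shared exon onward (GENCODE M21, GRCm38, minus strand); capitals mark the 56 coding bases of the 95-base exon in Meis1-201, at chr11:18884027-18884082, and the first 56 of the 281 coding bases of the last exon in Meis1-209, at chr11:18881867-18881922.
Meis1-201: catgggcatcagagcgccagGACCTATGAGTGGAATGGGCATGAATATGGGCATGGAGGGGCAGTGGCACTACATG
Meis1-209: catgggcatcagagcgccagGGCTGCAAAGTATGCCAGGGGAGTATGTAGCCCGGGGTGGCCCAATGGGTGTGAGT

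Retained-intron models held 26.0% and 26.6% of Meis1 TPM in replicates 1 and 2, and protein-coding models 66.4% and 67.4%. Models classed under nonsense-mediated decay held 7.55% and 2.54%, and the model without coding sequence 0 and 3.48%.

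Pbx3 also has a cassette exon, of 113 bases, at chr2:34176749-34176861. Models that include it had 0 counts in replicate 1 and 138.03 in replicate 2, and models that skip it had 174.62 and 235.34 counts. Skipping was the larger by counts in both libraries, although by TPM the forms changed places, with inclusion at 0 and 0.77 TPM and skipping at 1.85 and 0.48 TPM. The leading Pbx3 model by TPM was Pbx3-206 in replicate 1 and Pbx3-209 in replicate 2, both short and classed under nonsense-mediated decay, and by counts it was Pbx3-202 in both. The effective length of the gene was 1226.78 bases in replicate 1 and 1772.52 in replicate 2, which enters its TPM. The exon is shown in capitals after 20 bases of the one before it (GENCODE M21, GRCm38, minus strand).
Pbx3-201: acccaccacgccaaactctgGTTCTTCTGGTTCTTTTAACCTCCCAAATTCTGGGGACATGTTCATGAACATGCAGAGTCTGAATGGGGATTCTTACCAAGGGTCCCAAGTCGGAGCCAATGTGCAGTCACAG

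Pbx2 and Pknox1 had the same leading model in both libraries. Pbx2-201 held 96.2% and 97.1% of Pbx2 TPM in replicates 1 and 2, and Pknox1-201 held 66.7% and 67.1% of Pknox1 TPM, or 48.1% and 61.5% by posterior isoform percent. Pknox1-202 held 18.4% and 5.61% of TPM. Retained-intron models of Pknox1 held 9.90% and 20.2% of its TPM.

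Tgif1 has several first exons, grouped here by the base at which they end, and 1 group led in both libraries. That of Tgif1-201, Tgif1-205 and Tgif1-211, ending at chr17:70850872, held 38.0% of Tgif1 TPM in replicate 1 and 47.3% in replicate 2. The upstream first exon of Tgif1-202 held 30.7% and 14.7%. The first exon of Tgif1-207 and Tgif1-208 held 11.3% and 24.1% of TPM, above Tgif1-202 in replicate 2. By counts it held 8.68% and 10.3%, below Tgif1-202 at 25.8% and 12.8%. Within the leading group, Tgif1-211 led in replicate 1 at 32.1% of TPM against 2.59% in replicate 2, and Tgif1-201 stood at 5.87% and 44.7%. Tgif1-211 holds no base that Tgif1-201 lacks and is 176 bases shorter, so no base is unique to it. Protein-coding models together held 88.4% of Tgif1 TPM in both libraries. RefSeq (GRCm38.p6) gave promoter windows, from 250 bases before to 50 bases after a start, for 7 of the 9 genes, 12 windows in all, of which 5 were of Tgif1. The windows of the Tgif1-202 start, at chr17:70853483-70853782, and of the Tgif1-201 start, at chr17:70851161-70851460, are shown on the minus strand. Of the models in the leading group, only Tgif1-201 was matched to the latter window. Capitals mark TGACAG or TGATTNAT on either strand, core motifs of Meis and Tgif proteins and of HOX-Pbx pairs. The Tgif1-202 window holds neither.
Tgif1-202 promoter: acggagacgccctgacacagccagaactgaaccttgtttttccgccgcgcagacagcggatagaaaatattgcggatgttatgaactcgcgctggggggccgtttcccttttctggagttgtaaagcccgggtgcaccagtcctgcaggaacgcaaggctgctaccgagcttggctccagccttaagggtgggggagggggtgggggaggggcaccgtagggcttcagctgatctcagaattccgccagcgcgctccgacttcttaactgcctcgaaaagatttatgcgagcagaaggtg
Tgif1-201 promoter: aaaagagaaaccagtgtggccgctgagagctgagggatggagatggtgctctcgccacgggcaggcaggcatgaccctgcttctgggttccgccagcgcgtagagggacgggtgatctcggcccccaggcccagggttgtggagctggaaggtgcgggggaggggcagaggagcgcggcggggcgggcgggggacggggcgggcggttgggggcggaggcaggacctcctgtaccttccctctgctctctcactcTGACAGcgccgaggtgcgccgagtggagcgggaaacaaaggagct

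TGACAG was found in 2 of the 12 windows, both of Tgif1, and in 19.2% of all 32851 windows of 300 bases. TGATTNAT was found in 1 of the 12, at another Tgif1 start, and in 3.22% of all windows. The motifs do not overlap in these windows. A match describes letters and not binding.

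Most genes known to act on the HoxA cluster were expressed. Of 17 activators, 14 reached 1 TPM in both libraries, beside the 42.5% of nuclear protein-coding genes given above. The highest was Psip1, a chromatin tether of Kmt2a complexes, with 63.08 TPM in replicate 1 and 66.38 TPM in replicate 2. It was followed by Jmjd1c (27.44, 35.54) and Aff4 (13.46, 19.93). The activators Cdx1, Cdx2 and Cdx4, homeobox genes that switch on HOX clusters in the embryo, had 0 counts in both libraries. Dot1l, a histone methyltransferase that acts at Hoxa9 in leukaemia, was the one activator past 2-fold between libraries, at 1.59 and 4.35 TPM. Among all genes with a mean count of at least 100, 6.78% were past 2-fold. The median activator stood at 5.51 and 7.08 TPM.

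Of 11 Polycomb genes, whose complexes silence HOX genes, 9 reached 1 TPM in both libraries, where 42.5% of nuclear protein-coding genes did. Ezh2, the main methyltransferase of the complex, stood at 60.49 and 63.96 TPM, Suz12 at 23.11 and 33.07 TPM and Rnf2 at 23.45 and 25.1 TPM. The lowest were Cbx2 at 1.51 and 1.85 TPM, Cbx7 at 1.14 and 0.76 TPM and Cbx8 at 0.28 and 0.55 TPM. Cbx8, with 36 and 327 counts, was the one Polycomb gene past 2-fold between libraries. Of genes with a mean count of at least 100, 6.78% were.

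All 14 of the genes reported as targets of Hoxa9 or Meis1 in blood cells reached 1 TPM in both libraries. The share of nuclear protein-coding genes that did so was 42.5%, and the list was chosen with earlier results of these data known. None of the 14 differed 2-fold between the libraries, where 6.78% of genes with a mean count of at least 100 did. Cd34 and Flt3 are also on the list of progenitor markers. The median of the 14 was 20.5 TPM in replicate 1 and 25.6 TPM in replicate 2. The highest was Cd34, a surface protein of progenitors, with 125.44 TPM in replicate 1 and 121.43 TPM in replicate 2. The transcription regulators Myb (84.11, 106.06) and Lmo2 (79.26, 85.89) came next. Id2 was the lowest at 2.44 and 1.76 TPM, below Trib2 at 4.25 and 3.98 TPM and Camk2d at 5.37 and 2.88 TPM.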

How the data were processed

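Total RNA-seq of 2 libraries of 1 group was used. For each library the authors deposited tables of genes and of transcripts, which the readmes place on mm10 and GENCODE M4; aligner and quantifier are not given in the sources used here. The deposited expected counts (a column so named) are the authors' estimated reads and need not be whole. TPM and its posterior mean, as deposited, are relative to all table entries and allow for effective length. The deposited interval bounds of TPM are of a level that was not stated. The deposited isoform percent, per the file headers, is the percent of a gene's abundance held by a transcript. Readmes list signal per strand, but the strand setting of the counting was not given.

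The 9 genes and all other lists were chosen with earlier results of these data known. Symbols, coordinates and transcript models came from GENCODE M21 on the same assembly (42462 of 43346 genes matched; of the 58 models 57 matched, 52 with the same length, the exceptions being Hoxa7-201 and 4 Pknox1 models). Genes were named by a rule: all 9, every other HOX and TALE gene and HoxA cluster RNA, and of other lists the 3 highest and 3 lowest by mean TPM and any past 2-fold between libraries with a mean count of at least 50. Some genes that this rule takes in are not reported here.

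Means and SDs are over 2 libraries. For the ratio between libraries, expected counts were rounded and scaled by TMM (edgeR 4.0.16, R 4.3.3) with a prior count of 0.5. Ratios were read over genes with a mean count of at least 10. The step was tested on simulated data that held counting error only, so differences between preparations were not covered. Alternatives were DESeq2 1.42.0 size factors, library totals, a prior count of 2, no filter, posterior means, and TPM rescaled to nuclear protein-coding genes. Intervals (exact binomial, 95%) and limits of 3 counts cover counting error only, since the labels name no molecular identifiers and PCR copies may be counted. Scripts ran in Python 3.11.15.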

Additional observations from a re-analysis of the deposited data

How the results depend on the processing

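The 9 log2 ratios kept their sign, and none passed 2-fold, under DESeq2 size factors, library totals and a prior count of 2. The largest move of a log2 ratio was 0.0035, under library totals, so these settings test little. The filter only sets which genes are tallied, so leaving it out cannot change a ratio. The number of genes past 2-fold between libraries, 3153, was 5123 with no filter on low counts and 793 at a mean count of at least 100, an alternative chosen after seeing the data, as genes with low counts enter or leave. The median level of the 9 genes, 4.75 TPM, was 5.66 by posterior mean TPM, under which Pknox1 stood above Pbx2, and 22.7 once TPM was rescaled to nuclear protein-coding genes. That rescaling raises every level by construction: all 9 genes then reached 1 TPM in both libraries, and so did 2 other HOX genes, Hoxa3 and Hoxb4, against 0 before. The Hoxa share of the summed level, 26.0%, was 17.2% in expected counts, which are not corrected for length. The share of the leading transcript moved beyond 1 SD for 5 of 7 genes by counts and for 2 of 7 by posterior mean isoform percent; for Hoxa9-203 it was 50.6% by TPM and 15.9% by counts. Each library alone lies within 1 SD of a mean of 2 by construction, so leaving out a library tests little: without either one, 7 of the 9 genes and 0 other HOX genes reached 1 TPM. No paired analysis was possible because there is only 1 group. Depth limits Hoxa5 and Hoxa10 most, with 95 and 61 counts in replicate 1.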

Other observations

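Other partners of the 9 genes were also read in both libraries. Of 4 genes whose proteins bind HOX, Pbx or Meis proteins, all 4 reached 1 TPM in both libraries. Among nuclear protein-coding genes 42.5% did so. Gmnn, which binds HOX proteins and restrains DNA replication, stood at 38.25 and 46.63 TPM in replicates 1 and 2. The coactivators Ep300 and Crebbp stood at 6.22 and 10.32 TPM and at 4.80 and 6.10 TPM, and Pbxip1, which keeps Pbx proteins from DNA, at 2.83 and 4.73 TPM.

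All 9 of the Smad and corepressor genes whose proteins work with Tgif1 reached 1 TPM in both libraries, and none differed 2-fold between them. The shares over other genes were 42.5% of nuclear protein-coding genes for the level and 6.78% past 2-fold at a mean count of at least 100. The highest were Ctbp1 at 24.14 and 25.66 TPM, Sin3a at 21.74 and 18.66 TPM and Hdac1 at 15.92 and 23.31 TPM in replicates 1 and 2. The lowest were Ski at 1.77 and 2.19 TPM, Skil at 6.76 and 5.09 TPM and Smad3 at 4.00 and 8.71 TPM.

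Of 6 stem cell markers, none reached 1 TPM in both libraries, where 42.5% of nuclear protein-coding genes did, though 5 had counts in both. Mecom stood at 0.82 and 2.41 TPM in replicates 1 and 2, Slamf1 at 0.86 and 1.03 TPM and Ly6a at 0.69 and 0.73 TPM. Procr, at 0.08 and 0.75 TPM, and Fgd5, at 0.55 and 0.12 TPM, were past 2-fold between the libraries. So were 20.9% of all genes with a mean count of at least 10. Hoxb5 had 0 counts in both.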
